A study of Mus musculus with 18 samples.

Results

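Keratins are the intermediate filament proteins of epithelial cells. The genes described here are 6 keratins of simple and ductal epithelia and of the lining of the urinary tract, Krt5, Krt7, Krt8, Krt18, Krt19 and Krt20. They were taken by gene name from tables of 55385 genes, and all 6 passed the filter on low counts, as did 17575 genes in all. Whole kidneys were profiled by polyA RNA sequencing in 18 mice aged 17.1 to 18.0 weeks, in 3 groups of 6 animals with 3 males and 3 females each. The first group was Dp16, a line with a duplication of the part of mouse chromosome 16 that corresponds to much of human chromosome 21, used as a model of trisomy 21. The second was Dp16 2xIFNRs, which carries that duplication with the interferon receptor genes inside it back at the usual copy number. The reference was wild-type C57BL/6J. No treatment was given to any group, and each animal is 1 library.

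A keratin filament is built from pairs of 1 acidic (type I) and 1 basic or neutral (type II) chain, so neither kind forms filaments alone. Krt8 (type II) and Krt18 (type I) are the pair of simple epithelia, and in the kidney they are best known from the collecting duct and from tubules after injury. Krt7 and Krt19 mark ductal epithelium and urothelium, Krt5 marks basal cells of layered epithelia, and Krt20 marks the surface cells of the urothelium and of the gut.

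Library totals lay between 42157790 and 57814587 gene counts, with 6.34% to 10.9% of counts on mitochondrial genes. The labels held in 2 checks. Ifnar2, a chain of the type I interferon receptor, averaged 16.2 ± 2.27 RPKM in Dp16 and 10.7 ± 1.46 RPKM in Dp16 2xIFNRs, against 9.09 ± 0.94 RPKM in wild-type kidneys (SD, n = 6 each). Xist, the transcript that silences an X chromosome, had 0 to 5 counts in males and 880 to 2728 counts in females. The labels name no batch, but 7 pairs of libraries share a number in their description label whose meaning is not given. All values come from whole tissue, in which fewer cells of a type and less RNA per cell cannot be told apart. The other 48 keratin genes of the tables were mostly silent: 26 had no count in any library, 15 had some counts but failed the filter, and 7 were tested.

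None of the 6 genes lies on chromosome 16. On build GRCm38 with the GENCODE M21 annotation, 4 of them lie in the type II cluster of chromosome 15: Krt7 at chr15:101411043-101430313 on the plus strand, Krt5 at chr15:101707070-101712898 on the minus strand, Krt8 at chr15:101996698-102004482 on the minus strand and Krt18 at chr15:102028180-102032027 on the plus strand. Krt18 is the one type I gene of that cluster, and it starts 23697 bases from Krt8, with the pair running away from each other. Krt19 at chr11:100140810-100148665 and Krt20 at chr11:99428403-99438150 lie on the minus strand of chromosome 11 with the other type I genes.

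The promoters of Krt7, Krt18 and Krt8 are printed because Krt7 and Krt18 varied together among animals while Krt8 did not follow them. RefSeq gave a promoter for 5 of the 6 genes, and the 250 bases before the start are shown 5′ to 3′ on the gene's own strand (GRCm38.p6). Capitals mark matches on either strand to TATAAA, a common element near start sites, to GGGCGG, the GC box that Sp1-type factors bind, or to TGANTCA, which factors of the AP-1 family bind; the motifs do not overlap in these windows.
Krt7, chr15:101412153-101412402, plus strand: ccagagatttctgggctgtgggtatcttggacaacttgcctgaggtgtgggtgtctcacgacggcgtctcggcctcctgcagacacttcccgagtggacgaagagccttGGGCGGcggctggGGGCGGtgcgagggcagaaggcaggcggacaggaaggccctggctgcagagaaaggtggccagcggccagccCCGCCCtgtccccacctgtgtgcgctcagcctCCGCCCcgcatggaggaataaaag
Krt18, chr15:102027966-102028215, plus strand: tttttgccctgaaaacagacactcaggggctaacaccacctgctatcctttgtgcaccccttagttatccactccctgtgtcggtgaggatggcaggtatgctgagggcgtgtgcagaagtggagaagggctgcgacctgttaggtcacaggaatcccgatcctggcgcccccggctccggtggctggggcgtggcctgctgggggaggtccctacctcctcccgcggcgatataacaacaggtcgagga
Krt8, chr15:102004343-102004592, minus strand: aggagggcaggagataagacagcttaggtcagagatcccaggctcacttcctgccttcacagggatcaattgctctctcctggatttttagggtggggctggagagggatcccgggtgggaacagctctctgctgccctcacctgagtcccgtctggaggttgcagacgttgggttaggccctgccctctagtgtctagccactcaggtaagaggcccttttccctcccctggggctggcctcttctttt
The Krt7 window held 4 GC boxes, which begin 141, 128, 56 and 24 bases before the start, and had a GC content of 66.0%. The windows of Krt18 and Krt8 held none of the 3 motifs, and that of Krt18 had a GC content of 60.4%. Of 32851 promoters, 32.7% held a GC box, 12.4% a TATAAA and 6.75% a TGANTCA. The motifs CANNTG (the E-box) and TTCNNNGAA (a STAT site) were also searched for and are not marked. An E-box began 44 bases before the start in Krt7, 214 in Krt18, 184 and 111 in Krt8, and 128 and 107 in Krt5. E-boxes are common, in 66.2% of promoters. The STAT site was in none of these windows, beside 7.02% of promoters. Of the others, Krt20 held a TATAAA 29 bases before its start and Krt5 held none of the 3. The Krt7 window lies inside the annotated Krt7 gene, since M21 lists a longer transcript that starts upstream. The windows of Krt8 and Krt18 also reach past the M21 starts given above, so a part of each lies inside the annotated gene.

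Levels are given as RPKM, reads scaled to the length of the transcript and to the library's total. Krt8 stood highest, with 61.4 RPKM in the lowest of the 18 libraries, a median of 66.2 RPKM and 76.3 RPKM in the highest. Krt7 ran between 20.7 and 38.8 RPKM with a median of 26.9 RPKM, and Krt18 between 10 and 24.5 RPKM with a median of 17.4 RPKM. Krt19 followed at 3.35 to 7.36 RPKM, Krt5 at 1.06 to 2.88 RPKM and Krt20 at 0.224 to 1.14 RPKM. Within each library the order Krt8, Krt7, Krt18, Krt19, Krt5, Krt20 held in 18 of 18 libraries for every pair of neighbours. Across libraries the ranges of Krt7 and Krt18 overlapped, and so did those of Krt5 and Krt20.

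The place of Krt7 depends on the transcript length used. The deposited RPKM rests on 4094 bases for Krt7 and 1576 bases for Krt19, whereas the M21 exons cover 7049 and 1855 bases. The deposited tables are named for a later GENCODE release than M21. Dividing their counts by M21 lengths therefore mixes releases, and the values below only show how far the length matters. With the M21 lengths Krt7 averaged 16.2 ± 3.02 RPKM and Krt18 averaged 17.9 ± 4.35 RPKM (SD, n = 18), and Krt7 was above Krt18 in 2 of 18 libraries. Krt19 stayed above Krt5 in 18 of 18 libraries with either length. Differences between groups do not depend on this length.

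**Figure D1:**
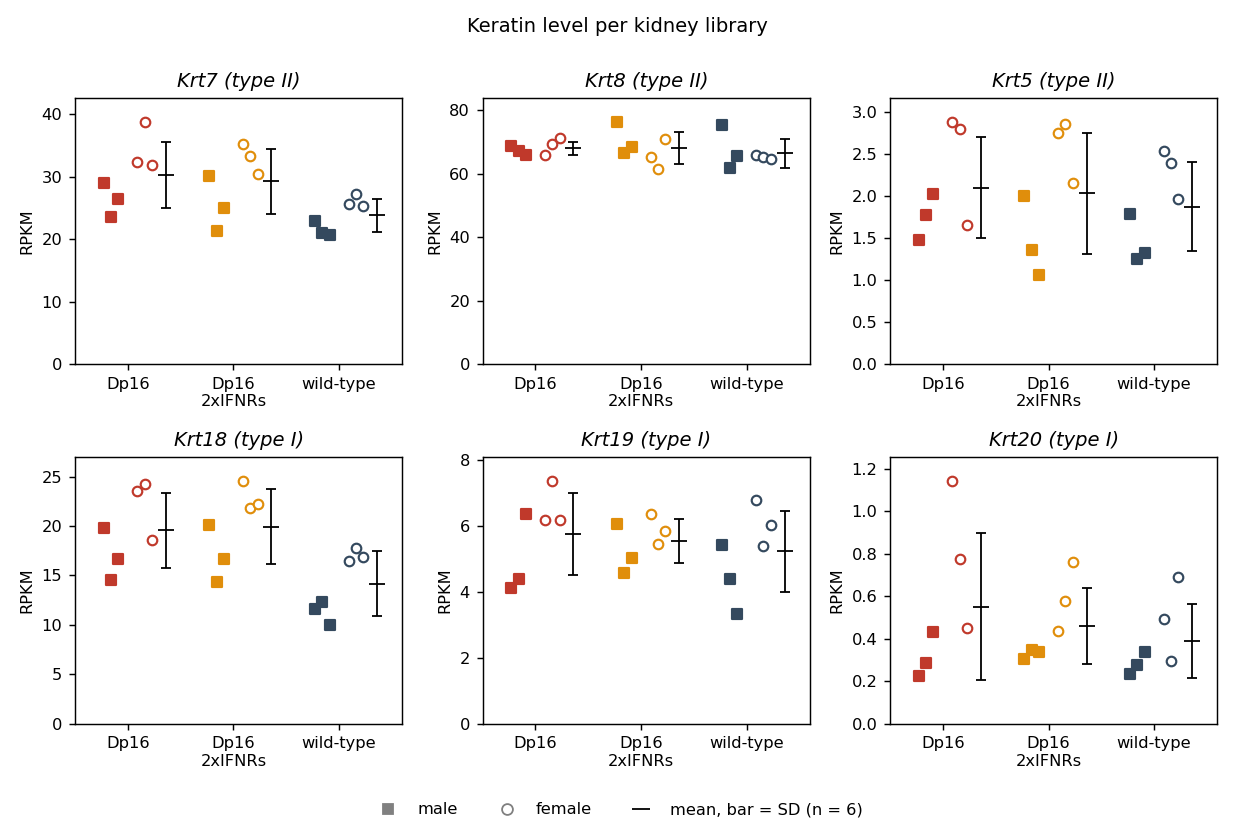
Level of each keratin in RPKM (vertical axes, from 0) in every library, for Dp16, Dp16 2xIFNRs and wild-type kidneys; filled squares are males, open circles females, and the bar gives the mean and SD of 6 libraries. Krt18 and Krt7 sit higher in both duplication groups than in wild-type animals of the same sex for most animals, while Krt8 lies between 61.4 and 76.3 RPKM in all 18 libraries.

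The genes also differed in how much they varied. The coefficient of variation over 18 libraries was 5.86% for Krt8, against 24.3% for Krt18, its partner in the filament. It was 18.7% for Krt7, 18.8% for Krt19, 29.6% for Krt5 and 51.6% for Krt20. Krt20 rested on 23 to 104 counts per library and Krt5 on 126 to 337. Relative to the level, counting error is larger for them than for Krt8, with 5478 to 8409 counts. Its share of each gene's spread was not worked out.

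In Dp16 kidneys Krt18 and Krt7 were higher than in wild-type kidneys, and Krt8, the most abundant keratin, was not detectably different. Of the 6 genes, 2 rose and 0 fell at an adjusted p under 0.05 (edgeR's quasi-likelihood test, Benjamini-Hochberg over all genes tested), a threshold that 4.23% of all 17575 genes passed, 3.17% as higher and 1.06% as lower. The median log2 fold of the 6 genes was 0.23, beside -0.01 over all genes tested.

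Krt18 had 14.5, 19.2 and 24.2 RPKM as the lowest, median and highest value in Dp16 kidneys, against 10, 14.4 and 17.8 RPKM in wild-type kidneys. The groups overlapped with both sexes pooled, but within each sex every Dp16 animal was above every wild-type animal. With so few animals of each sex per group, such a separation can arise by chance. The share of all genes that separate in this way was not worked out, here or for the separations described below. Among males the values were 14.5, 16.7 and 19.8 RPKM in Dp16 and 10, 11.6 and 12.3 RPKM in wild-type. Among females they were 18.6, 23.5 and 24.2 RPKM in Dp16 and 16.5, 16.9 and 17.8 RPKM in wild-type. Krt18 rose 1.36-fold, a log2 fold of 0.45 ± 0.09 (SE, edgeR adjusted p = 0.00703), and 6 of 6 Dp16 libraries were above the wild-type mean. The call held with each of the 18 libraries left out in turn, with an adjusted p of at most 0.0254, but not in a fit without sex as a term (adjusted p = 0.147).

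Krt7 had 23.6, 30.4 and 38.8 RPKM as the lowest, median and highest value in Dp16 kidneys and 20.7, 24.1 and 27.3 RPKM in wild-type kidneys. Here too the groups overlapped as a whole and separated within each sex. Males had 23.6, 26.4 and 29.0 RPKM in Dp16, against 20.7, 21.0 and 22.9 RPKM in wild-type. Females had 31.9, 32.4 and 38.8 RPKM in Dp16, against 25.3, 25.7 and 27.3 RPKM in wild-type. Krt7 rose 1.24-fold, a log2 fold of 0.31 ± 0.08 (SE, edgeR adjusted p = 0.022), with 5 of 6 Dp16 libraries above the wild-type mean. This call rests on single libraries: the adjusted p was 0.0511, 0.0526 and 0.053 without wild-type replicates 2, 4 and 6, and 0.0603 and 0.069 without Dp16 replicates 1 and 3, with log2 folds of 0.26 to 0.30. It was also lost without sex as a term (adjusted p = 0.166) and in males or females alone (adjusted p = 0.364 and 0.21).

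The other 4 genes did not pass the test in Dp16 kidneys. Krt8 averaged 68.0 ± 2.1 RPKM in Dp16 and 66.4 ± 4.54 RPKM in wild-type kidneys (SD, n = 6 each), with a log2 fold of 0.00 and a 95% interval of -0.11 to 0.11. That interval lies below the one of Krt18, which ran from 0.26 to 0.64. Krt19 averaged 5.78 ± 1.25 RPKM in Dp16 and 5.24 ± 1.22 RPKM in wild-type kidneys, with an interval of -0.15 to 0.37 on the log2 scale. Krt5 averaged 2.1 ± 0.596 RPKM in Dp16 and 1.87 ± 0.53 RPKM in wild-type kidneys, with an interval of -0.2 to 0.5. Krt20, the least abundant, averaged 0.552 ± 0.346 RPKM in Dp16 and 0.389 ± 0.174 RPKM in wild-type kidneys. Its interval of -0.16 to 0.96 is wide enough to hold a fold as large as that of Krt18, and groups overlapped for all 4 genes.

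**Figure D2:**
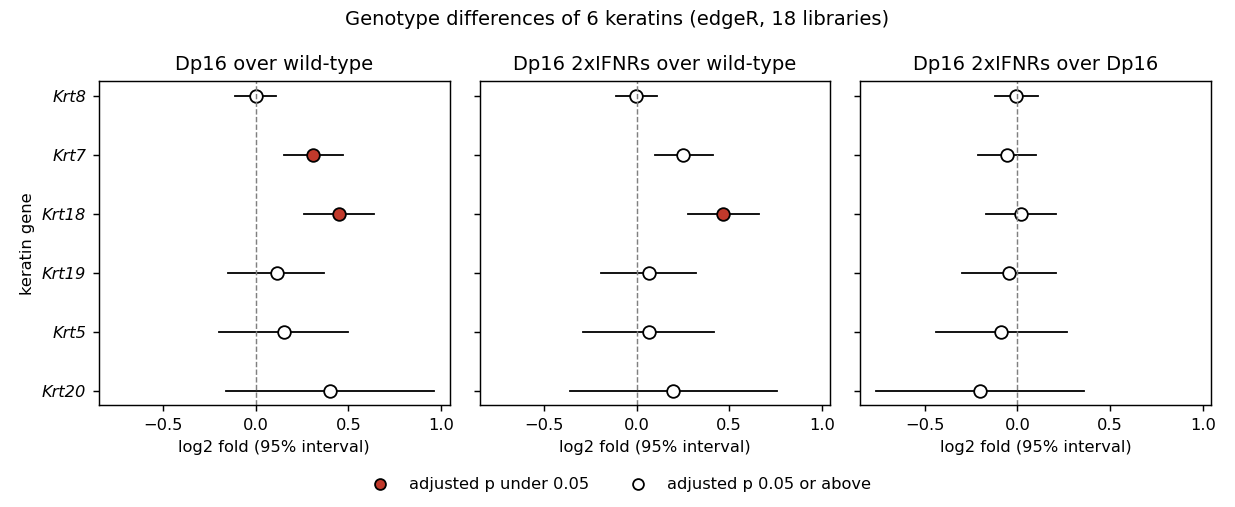
Log2 fold of each keratin (horizontal axes) with its 95% interval from the edgeR fit of 18 libraries, for Dp16 over wild-type, Dp16 2xIFNRs over wild-type and Dp16 2xIFNRs over Dp16; filled points have an adjusted p under 0.05. Krt18 is filled in both comparisons with wild-type, Krt7 in the first of them, and Krt8 lies at 0 with the shortest interval.

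In Dp16 2xIFNRs kidneys Krt18 was again higher than in wild-type kidneys, and 5 of the 6 genes did not pass the test. At the same threshold 1 gene rose and 0 fell, where 4.79% of all genes passed, 3.17% as higher and 1.61% as lower. The wild-type libraries are the same in both comparisons, so these 2 results are not independent. The median log2 fold of the 6 genes was 0.13, beside 0.01 over all genes tested.

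Krt18 had 14.3, 21.0 and 24.5 RPKM as the lowest, median and highest value in Dp16 2xIFNRs kidneys, against 10, 14.4 and 17.8 RPKM in wild-type kidneys. Males had 14.3, 16.7 and 20.1 RPKM and females 21.8, 22.2 and 24.5 RPKM in Dp16 2xIFNRs, in each case above every wild-type animal of the same sex, although wild-type females, at 16.5 to 17.8 RPKM, overlapped with Dp16 2xIFNRs males. It rose 1.38-fold, a log2 fold of 0.47 ± 0.09 (SE, edgeR adjusted p = 0.00493), with 6 of 6 libraries above the wild-type mean. Without sex as a term the adjusted p was 0.118.

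Krt7 had 21.4, 30.3 and 35.3 RPKM as the lowest, median and highest value in Dp16 2xIFNRs kidneys and 20.7, 24.1 and 27.3 RPKM in wild-type kidneys. Females of Dp16 2xIFNRs, at 30.5, 33.3 and 35.3 RPKM, were above all wild-type females, while males, at 21.4, 25.0 and 30.1 RPKM, overlapped with wild-type males. The log2 fold of 0.25 ± 0.08 (SE) just missed the threshold (edgeR adjusted p = 0.0573), and 5 of 6 libraries were above the wild-type mean. DESeq2 gave an adjusted p of 0.0407, and without Dp16 2xIFNRs replicate 3, the male at 21.4 RPKM, the edgeR adjusted p was 0.0351.

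Krt8 averaged 68.0 ± 5.11 RPKM in Dp16 2xIFNRs and 66.4 ± 4.54 RPKM in wild-type kidneys (SD, n = 6 each), with a 95% interval of the log2 fold of -0.11 to 0.11. Krt19 averaged 5.56 ± 0.667 RPKM in Dp16 2xIFNRs and 5.24 ± 1.22 RPKM in wild-type kidneys. Krt5 averaged 2.03 ± 0.721 RPKM in Dp16 2xIFNRs and 1.87 ± 0.53 RPKM in wild-type kidneys. Krt20 averaged 0.461 ± 0.178 RPKM in Dp16 2xIFNRs and 0.389 ± 0.174 RPKM in wild-type kidneys. None of these 4 passed the test, with log2 folds of 0.00 for Krt8, 0.07 for Krt19, 0.07 for Krt5 and 0.20 for Krt20, and the groups overlapped for each.

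The direct comparison of Dp16 2xIFNRs with Dp16 kidneys asks whether the copy number of the interferon receptor genes bears on the keratins. None of the 6 genes was called by edgeR or by DESeq2, none had an unadjusted p under 0.05, and 0.0171% of all genes were called. Of all 17575 genes 827 had an unadjusted p under 0.05. The 6 log2 folds lay between -0.20 and 0.02, with a median of -0.05. For Krt18 the fold was 0.02 with a 95% interval of -0.17 to 0.21, which leaves out a difference as large as its rise over wild-type in either line. For Krt7 it was -0.06 with an interval of -0.21 to 0.1. The interval was -0.12 to 0.11 for Krt8, -0.3 to 0.21 for Krt19, -0.44 to 0.27 for Krt5 and -0.76 to 0.36 for Krt20, so for the last 2 a moderate difference in either direction was not detectable.

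Since Krt8 and Krt18 pair in filaments, their ratio within each library was also compared, which does not depend on the scaling between libraries. The ratio of Krt8 to Krt18 RPKM was lower in both duplication groups. It was 2.8, 3.65 and 4.63 as the lowest, median and highest value in Dp16 kidneys and 2.66, 3.48 and 4.65 in Dp16 2xIFNRs kidneys, against 3.66, 4.52 and 6.56 in wild-type kidneys. Among males, all 3 Dp16 and all 3 Dp16 2xIFNRs animals were below every wild-type animal. Among females this held for 2 of 3 Dp16 animals and for 3 of 3 Dp16 2xIFNRs animals.

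The log2 ratio was lower by a difference of -0.44 in Dp16 than in wild-type kidneys (95% interval -0.70 to -0.17, exact two-sided permutation test within sex, p = 0.015). In Dp16 2xIFNRs the difference from wild-type was -0.47 (95% interval -0.66 to -0.28, exact two-sided permutation test, p = 0.005, the smallest that 400 permutations can give). Permuted without regard to sex, this second difference had an exact p of 0.0519. In each comparison 6 of 6 animals were below the wild-type mean. Between Dp16 2xIFNRs and Dp16 the difference was -0.03 (95% interval -0.28 to 0.21, exact permutation p = 0.78). The measured quantity is RNA, and nothing here measures the protein chains.

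**Figure D3:**
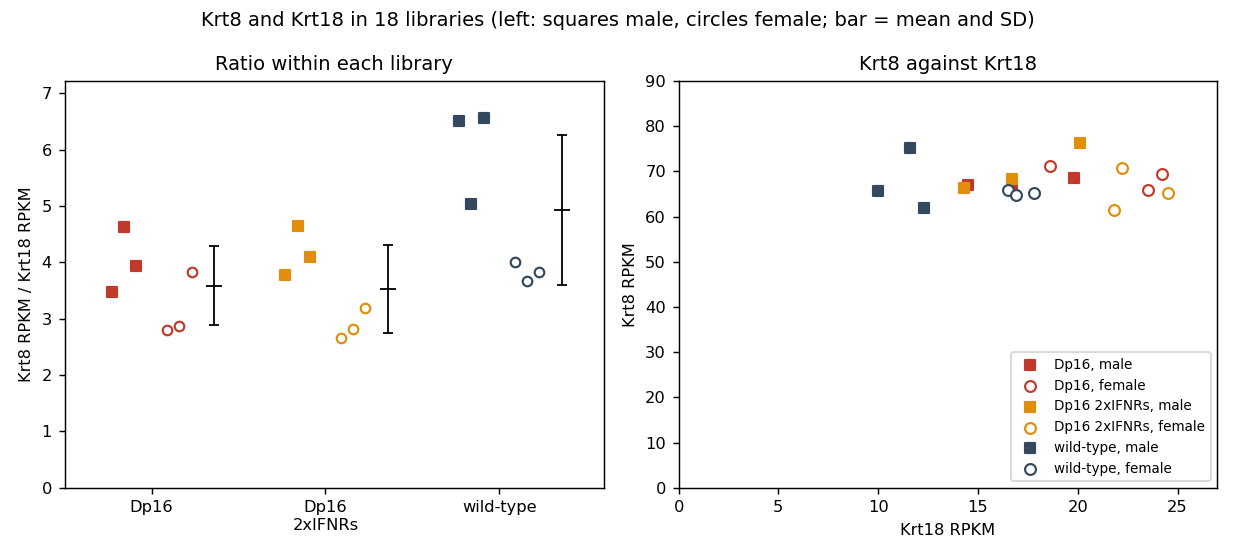
Left, ratio of Krt8 to Krt18 RPKM in each library of Dp16, Dp16 2xIFNRs and wild-type kidneys (squares males, circles females, bar mean and SD, n = 6); right, Krt8 RPKM against Krt18 RPKM in the same 18 libraries. The ratio is highest in wild-type males, at 5.03 to 6.56, and on the right the points spread along the Krt18 axis at nearly constant Krt8.

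Summed over the 3 genes of each type, type I keratins averaged 25.9 ± 4.9 RPKM in Dp16 and 26.0 ± 4.5 RPKM in Dp16 2xIFNRs, against 19.8 ± 4.4 RPKM in wild-type kidneys (SD, n = 6 each). Type II keratins averaged 100 ± 6.84 RPKM in Dp16 and 99.2 ± 6.84 RPKM in Dp16 2xIFNRs, against 92.1 ± 5.59 RPKM in wild-type kidneys. Krt8 made up 54.1% ± 4.3 of the 6 genes' summed RPKM in Dp16 and 54.6% ± 5.24 in Dp16 2xIFNRs, against 59.5% ± 4.41 in wild-type kidneys. The type II sum depends on the length used for Krt7 and the type I sum on that used for Krt19, and neither sum nor share was tested.

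Krt7 and Krt18 varied together among animals of the same genotype and sex. With group and sex means taken out of log2 CPM, Pearson's r between them was 0.81 (permutation p = 7e-05, 0.00105 after adjustment over 15 pairs) and Spearman's rho was 0.76 (permutation p = 0.00041, adjusted 0.00615) over 18 libraries. Without the 2 libraries farthest from the median of Krt7 the r was 0.75 (permutation p = 0.00081). Within the 9 males r was 0.86 (permutation over all orders, p = 0.00285) and rho 0.88. Within the 9 females r was 0.74 (permutation over all orders, p = 0.0205) and rho 0.67 (permutation p = 0.0589). All these permutations treat the deviations as free values, although group and sex means were taken out of them first. Their p-values are therefore approximate and tend to be too small, most of all within 1 sex.

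Krt8 and Krt18, the filament partners, had an r of 0.06 (permutation p = 0.801) and a rho of 0.06 (permutation p = 0.811). The other 13 pairs did not pass the adjustment, the closest being Krt5 with Krt19 and Krt5 with Krt7, each with an r of 0.54 (adjusted permutation p = 0.111). Both genes of a pair are read from the same library, so they share its depth, its scaling and the piece of tissue it came from.

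**Figure D4:**
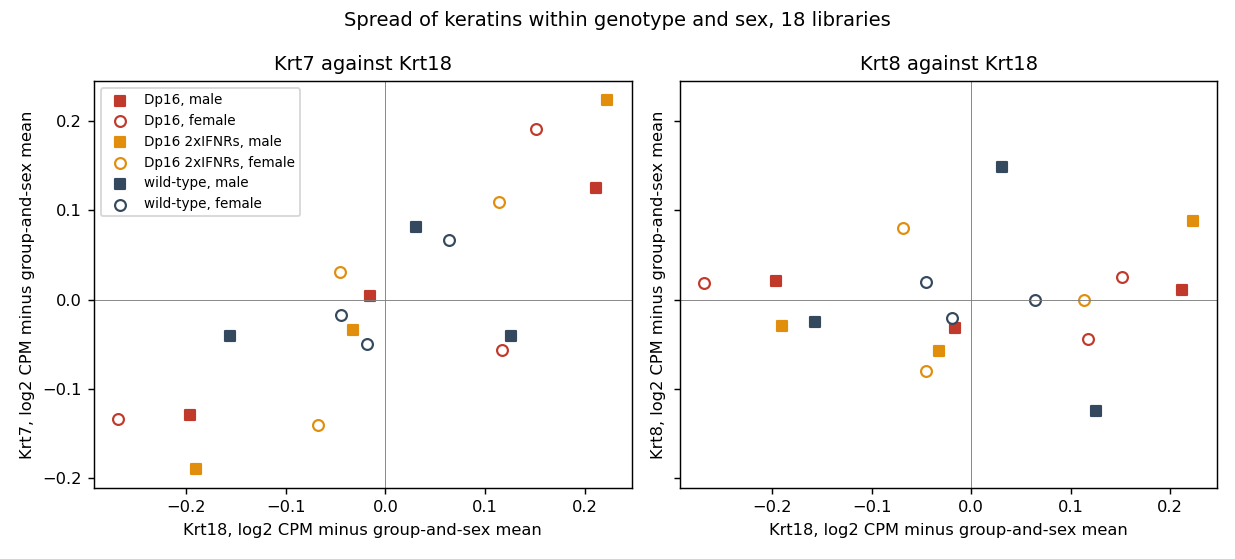
Deviation of Krt7 (left) and Krt8 (right) from the mean of the animal's own genotype and sex, against the deviation of Krt18, in log2 CPM for 18 libraries (squares males, circles females; colours give the groups). Krt7 follows Krt18 with an r of 0.81, and Krt8 does not, with an r of 0.06.

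By the same measure, the genes most like each keratin over 18 libraries were found among all genes tested, as a description with no test. For Krt18 they were Gmpr2 (r = 0.89), Gm4294 (0.86) and Sh2d4a (0.85). For Krt7 they were Zfp423 (r = 0.88), Ighm (0.88) and Hoxd8 (0.86), and for Krt8 Anxa3 (0.84), Eprn (0.83) and Olfr558 (0.82). For Krt19 they included Morf4l1-ps1 (r = 0.89) and Gnpnat1 (0.84). They were for Krt5 Eif2b3 (0.89), Odf3l1 (0.89) and Wdr61 (0.87), and for Krt20 2210016F16Rik (0.85), Gm26588 (0.83) and Anks1b (0.81). No keratin was among the 3 closest genes of another. Each r listed was picked as one of the highest among all genes tested, and such picks can be high by chance. How high was not worked out.

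Most of the keratins differed between the sexes, in a transcriptome in which 38.8% of all genes were called between males and females, 19.0% as higher and 19.7% as lower in males. Of the 6 genes, 4 fell and 1 rose in males at an adjusted p under 0.05, and their median log2 fold was -0.29, beside -0.03 over all genes tested. The shift between the sexes depends on the scaling: with libraries scaled to their total counts the median of all genes moved by -0.12, to -0.15, and each fold below moved with it.

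Krt20 had 0.224, 0.303 and 0.433 RPKM as the lowest, median and highest value in males, against 0.295, 0.579 and 1.14 RPKM in females, and the sexes overlapped. It fell by 0.87 ± 0.22 on the log2 scale in males (SE, edgeR adjusted p = 0.00357). Krt5 had 1.06, 1.48 and 2.02 RPKM in males and 1.65, 2.53 and 2.88 RPKM in females, and fell by 0.53 ± 0.14 (adjusted p = 0.00467).

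Krt18 had 10, 14.5 and 20.1 RPKM in males and 16.5, 21.8 and 24.5 RPKM in females. It fell by 0.35 ± 0.07 in males (adjusted p = 0.000896). Krt7 had 20.7, 23.6 and 30.1 RPKM in males and 25.3, 31.9 and 38.8 RPKM in females, and fell by 0.22 ± 0.06 (adjusted p = 0.00608). In wild-type animals alone the sexes did not overlap for Krt18 or Krt7. The share of all genes for which this holds was not worked out.

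Krt8 had 61.9, 67.1 and 76.3 RPKM in males and 61.4, 65.8 and 71.1 RPKM in females, an almost complete overlap. Its log2 fold was 0.16 ± 0.04 (SE, edgeR adjusted p = 0.006) with TMM scaling but 0.04 ± 0.05 (adjusted p = 0.537) with total counts, so its rise in males holds under 1 of these scalings. Krt19 had 3.35, 4.58 and 6.36 RPKM in males and 5.41, 6.18 and 7.36 RPKM in females, with a log2 fold of -0.23 ± 0.10 (adjusted p = 0.0802) under TMM and -0.35 ± 0.10 (adjusted p = 0.00981) under total counts. The 4 genes that fell kept their call under both scalings, and with total counts 5 fell and 0 rose.

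The ratio of Krt8 to Krt18 RPKM, which no scaling changes, was 3.47, 4.63 and 6.56 as the lowest, median and highest value in males, against 2.66, 3.19 and 4.0 in females. It was not tested between the sexes. No keratin showed a genotype difference that differed between the sexes. Of 18 interaction tests, 0 were called by edgeR or by DESeq2 and 0 had an unadjusted p under 0.05. Of all genes 0.0171%, 0.00569% and 0.00% were called for Dp16 over wild-type, Dp16 2xIFNRs over wild-type and Dp16 2xIFNRs over Dp16. At an unadjusted p under 0.05 these interactions held 1380, 621 and 676 of all 17575 genes. In fits of 1 sex alone Krt18 had log2 folds of 0.53 in males and 0.34 in females for Dp16 over wild-type, and of 0.52 and 0.38 for Dp16 2xIFNRs over wild-type, none of them called with 3 animals a group (adjusted p of 0.0823 to 0.305).

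**Figure D5:**
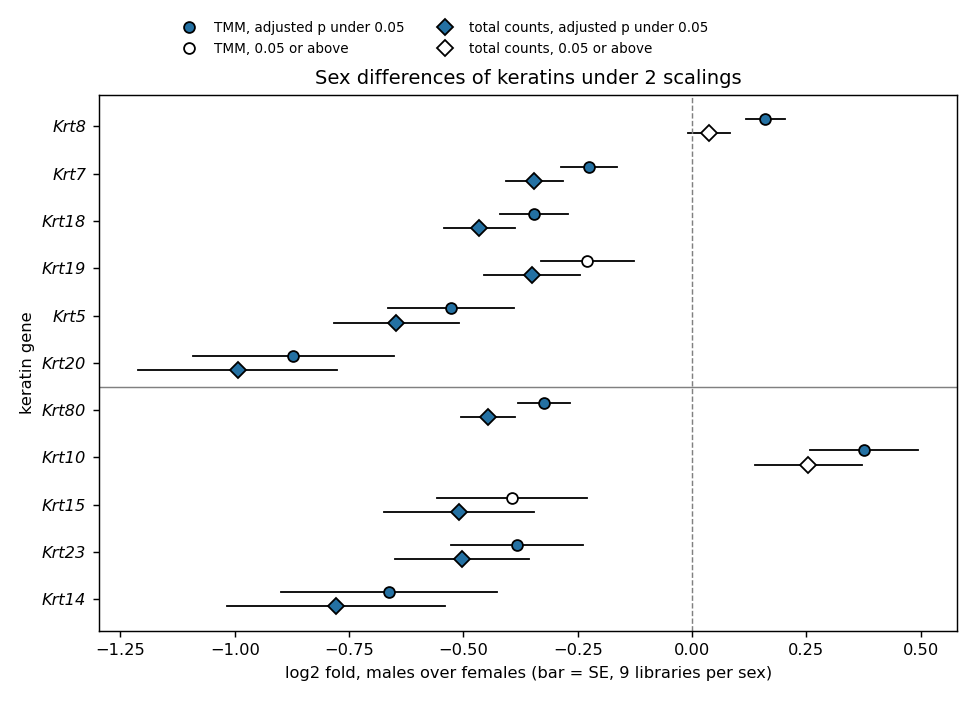
Log2 fold of males over females with its SE (horizontal axis) for the 6 keratins, above the line, and for the 5 most abundant other keratins tested, below it, with TMM scaling (circles) and with scaling to total counts (diamonds), 9 libraries per sex; filled points have an adjusted p under 0.05. Krt8 and Krt10 lie to the right of 0 and lose their call under total counts, and the other 9 genes lie to the left of 0 under both scalings.

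Among the other keratins tested, Krt80, a type II keratin, was the most abundant at 4.34 ± 0.885 RPKM (SD, n = 18), followed by Krt10 at 3.24 ± 0.647 RPKM, Krt15 at 1.66 ± 0.522 RPKM, Krt23 at 1.57 ± 0.452 RPKM and Krt14 at 0.457 ± 0.183 RPKM. In Dp16 kidneys 0 of the 7 passed the test by edgeR and 1, Krt80, by DESeq2, with 2 at an unadjusted p under 0.05: Krt80 with a log2 fold of 0.25 (adjusted p = 0.0515) and Krt14 with 0.63 (adjusted p = 0.268). In Dp16 2xIFNRs kidneys 1 of 7 rose, Krt80 by 0.35 ± 0.07 on the log2 scale (SE, edgeR adjusted p = 0.00563). Between the sexes 1 rose in males, Krt10 with 0.38 (edgeR adjusted p = 0.0162, but 0.0857 when scaled to total counts). Another 4 fell: Krt80, Krt222, Krt14 and Krt23. Of all genes 38.8% were called between the sexes, 19.0% as higher and 19.7% as lower in males. For Dp16 and Dp16 2xIFNRs over wild-type 4.23% and 4.79% were called by edgeR. In these 2 comparisons 3004 and 3196 of all 17575 genes had an unadjusted p under 0.05.

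Genes that anchor keratins or work with them were read beside the share of all genes called. It was 4.23% for Dp16 and 4.79% for Dp16 2xIFNRs over wild-type, at which lists of this size hold few calls or none. At an unadjusted p under 0.05, 3004 of all 17575 genes passed for Dp16 and 3196 for Dp16 2xIFNRs over wild-type. Of 13 genes of desmosomes and plakins, which tie keratin filaments to the cell surface, 0 passed the edgeR test in Dp16 kidneys, with a median log2 fold of -0.04, 2 at an unadjusted p under 0.05 and 1, Evpl, called by DESeq2. In Dp16 2xIFNRs kidneys Pkp2, a desmosomal plaque protein, rose by 0.25 and Perp, a desmosomal membrane protein, fell by 0.28 (adjusted p = 0.0241 and 0.0145). Of 9 genes of epithelial junctions and surfaces, 0 passed in Dp16 kidneys (2 at an unadjusted p under 0.05 and 1 by DESeq2) and 1 in Dp16 2xIFNRs kidneys. Of 12 regulators and partners of keratins, 0 passed in Dp16 kidneys (4 at an unadjusted p under 0.05, 0 by DESeq2) and 1, Trim29 (0.68, adjusted p = 0.0435), in Dp16 2xIFNRs kidneys. Vimentin and 6 other genes of intermediate filaments outside the keratins gave 0 calls in either comparison by edgeR or DESeq2 and 2 at an unadjusted p under 0.05 in each, with Vim at 0.28 (adjusted p = 0.101) in Dp16 and 0.21 (adjusted p = 0.223) in Dp16 2xIFNRs.

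Between males and females the same lists held more calls, as did the transcriptome, of which 38.8% was called, 19.7% as lower in males. Of the regulators and partners 7 of 12 fell, among them Elf3 by 0.51, Ehf by 0.49 and Gata3 by 0.36 on the log2 scale, all transcription factors of epithelia. Of the junction and surface genes 6 of 9 fell, with Epcam by 0.69, Cldn7 by 0.66 and Cldn4 by 0.43. Of the desmosome and plakin genes 4 fell and 2 rose, with log2 folds of -1.04 for Dsg2 and -0.85 for Ppl. The 6 calls of 13 in this last list are near the share of all genes. Scaled to total counts, 10 of 12, 9 of 9 and 7 of 13 of these genes fell and 0 rose.

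Markers of the cell types that make these keratins were read beside them. The edgeR test called 4.23% of all genes for Dp16 and 4.79% for Dp16 2xIFNRs over wild-type. At an unadjusted p under 0.05, 3004 and 3196 of all 17575 genes passed in these comparisons. Of 10 urothelial markers 9 were tested and 0 were called in either comparison with wild-type by edgeR or DESeq2 (3 and 0 at an unadjusted p under 0.05), with median log2 folds of 0.26 in Dp16 and 0.03 in Dp16 2xIFNRs. Their summed level ran from 27.2 to 51.0 RPKM in Dp16, from 25.4 to 44.4 RPKM in Dp16 2xIFNRs and from 22.8 to 42.4 RPKM in wild-type kidneys. The uroplakins Upk1a, Upk1b, Upk2, Upk3a and Upk3b, the defining membrane proteins of urothelium, were counted in every library, and Krt13 was at 0 in 14 of 18 libraries. Of 8 markers of collecting duct principal cells 0 were called in either comparison by edgeR or DESeq2 (1 and 2 at an unadjusted p under 0.05), with medians of 0.02 and 0.05. Their summed level ran from 361 to 488 RPKM in Dp16, from 376 to 488 RPKM in Dp16 2xIFNRs and from 336 to 487 RPKM in wild-type kidneys. Of 5 mesothelial markers 4 were tested and 0 were called by edgeR or DESeq2 (0 and 1 at an unadjusted p under 0.05), with sums of 41.1 to 50.5 RPKM in Dp16, 40.4 to 51.0 RPKM in Dp16 2xIFNRs and 35.6 to 48.9 RPKM in wild-type kidneys. That sum is mostly Gpm6a, at 42.7 ± 4.25 RPKM (SD, n = 18), and the median log2 folds of the 4 were -0.06 in Dp16 and -0.30 in Dp16 2xIFNRs.

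Some markers of injured proximal tubule and most of those of macrophages rose in the duplication groups, where 3.17% of all genes rose in each comparison. In Dp16 kidneys 2 of 7 injury markers rose, Lcn2 (neutrophil gelatinase-associated lipocalin) by 1.04 and Spp1 (osteopontin) by 0.43 on the log2 scale, and the median of the 7 was 0.43. The other 5, Havcr1, Vcam1, Cd24a, Sox9 and Prom1, did not pass by edgeR, and DESeq2 called 1 of them, Vcam1. In Dp16 2xIFNRs kidneys 3 of 7 rose, Lcn2 by 0.84, Spp1 by 0.38 and Havcr1 (kidney injury molecule 1) by 1.28, with a median of 0.38. The summed level of the 7 ran from 504 to 1270 RPKM in Dp16, from 467 to 1160 RPKM in Dp16 2xIFNRs and from 353 to 1000 RPKM in wild-type kidneys. That sum is mostly Spp1, at a mean of 617 RPKM over 18 libraries. Of 5 macrophage markers, 4 rose in each comparison, Lyz2, Mpeg1, Adgre1 and C1qa, and the medians of the 5 were 0.63 in Dp16 and 0.68 in Dp16 2xIFNRs. The remaining marker, Csf1r, did not pass, with -0.03 in Dp16 and 0.08 in Dp16 2xIFNRs (edgeR adjusted p = 0.907 and 0.694). The summed level of the 5 was 103 to 137 RPKM in Dp16 and 94.3 to 139 RPKM in Dp16 2xIFNRs. Neither range overlapped with that of 52.8 to 82.0 RPKM in wild-type kidneys. The part of these cell types in the levels of Krt18 and Krt7 was not tested.

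Between the sexes most marker sums lay lower in males, with no test of the sums, where 38.8% of all genes were called. Urothelial markers summed to 22.8 to 34.6 RPKM in males and 34.2 to 51.0 RPKM in females, with 3 of 9 lower in males: Psca, Upk3b and Krt14. Principal cell markers summed to 336 to 431 RPKM in males and 454 to 488 RPKM in females, with 4 of 8 lower in males: Aqp4, Fxyd4, Scnn1b and Hsd11b2. Injury markers summed to 353 to 525 RPKM in males and 822 to 1270 RPKM in females, with 5 of 7 lower and 1, Havcr1, higher in males. With total counts 5 of 9, 7 of 8 and 6 of 7 of these markers were lower. The injury sum is mostly Spp1, at a mean of 617 RPKM over 18 libraries, while Havcr1 averaged 0.982 RPKM. Sums for other cell types lay lower in males too, although the ranges overlapped at their ends, with loop of Henle markers at 1560 to 2080 RPKM in males and 2030 to 2660 RPKM in females, and podocyte markers at 60.9 to 94.5 RPKM in males and 93.6 to 133 RPKM in females. Of the 5 loop of Henle genes 4 were called lower in males and 1, Cldn10, higher. Their sum is mostly Umod, at a mean of 1700 RPKM. The proximal tubule sum lay higher in males, at 3710 to 4260 RPKM, against 2950 to 3400 RPKM in females. That sum is mostly Slc27a2 and Slc34a1, with means of 1500 and 1420 RPKM. The 6 genes of this list did not move as one: 3 were called higher in males and 2 lower, among them Cubn (log2 fold -0.355). With total counts 3 were higher and 3 lower. Mesothelial markers overlapped, at 35.6 to 51.0 RPKM in males and 40.4 to 49.6 RPKM in females. Of the macrophage markers 0 of 5 were called by edgeR or DESeq2 (1 at an unadjusted p under 0.05). Between the sexes 8172 of all 17575 genes had an unadjusted p under 0.05. The part of these cell types in the sex differences of the keratins was not tested.

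Reads of a few other loci could be counted with these genes. Krt8 has a processed pseudogene, Krt8-ps, 98.6% identical over 941 bases, which held 3 to 16 counts a library against 5478 to 8409 for Krt8. Gm5200 is 90.2% identical to Krt18 over 1269 bases and had 0 counts in every library. On the opposite strand Gm671 overlaps Krt7 by 1269 bases with 2 to 46 counts, Gm36026 overlaps Krt8 by 271 bases with 0 to 20 counts, and Gm44323 lies within Krt5 with 0 to 3 counts. The libraries were strand-specific, but the strand setting of the counting is not given in the sources used here.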

How the data were processed

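TRIzol extraction, strand-specific polyA libraries and paired-end sequencing were used, per the labels' protocols. The submitters' processing notes name bcl2fastq, FastQC 0.11.5, HISAT2 2.1.0, SAMtools 1.5, HTSeq 0.6.1 and build GRCm38. The authors deposited raw counts per gene and RPKM values for 55385 genes. How the RPKM were made is not given in the sources used here, but counts divided by RPKM gave 1 length per gene within 0.1% for 12616 of 12616 genes checked.

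Counts were tested with edgeR 4.0.16 (quasi-likelihood, TMM, R 4.3.3) in 1 fit of 18 libraries with group and sex as terms. The filter (minimum count 10, minimum total 15) left 17575 genes and removed 37810. P-values were adjusted by Benjamini-Hochberg over all genes, with a threshold of 0.05, and the SE is the log2 fold divided by the root of its F statistic. The interactions came from a fit with a mean for each group and sex. The Krt8 to Krt18 ratio was tested over all 400 exchanges of animals between groups within sex. Correlations used log2 CPM (prior count 2) and 100000 permutations. The edgeR test of Dp16 over wild-type was tried on simulated counts. Transcripts were compared with BLAST 2.17.0, for alignments of at least 300 bases and 90% identity.

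Alternatives were RLE factors, other filters, no sex term, age, a replicate block, DESeq2 1.42.0, limma 3.58.1 (voom with the description number as a block, and a trend fit on RPKM with a pseudocount of 0.1), 2 groups alone, and each library left out. Scaling to total counts and fits of 1 sex were added after the data were seen. The keratins, gene lists and tests were chosen with earlier results of these data known. Beside the 6 keratins, the rule named called members of each list (at most 4), the 3 genes most like each keratin, and the 5 most abundant other keratins; Krt222, Krt23 and genes given with no call were named after their values were seen. A few genes that the rule picked are not reported here. Each animal is 1 sample, and no 2 libraries agreed within sampling noise (chi-square per degree of freedom of at least 18.5).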

Additional observations from a re-analysis of the deposited data

Results flagged for a closer look

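Of 21 groups of values checked for a sample far from the others, 1 was picked out, about as many as chance gives at 1 in 20. It was Krt8 in wild-type kidneys, where replicate 1, a male, had 75.2 RPKM and the next library 66.0 RPKM, a gap of 0.691 of the group's range, above Dixon's critical value. Without that library the log2 fold of Krt8 was 0.04 in Dp16 and 0.02 in Dp16 2xIFNRs over wild-type, with neither called (edgeR adjusted p = 0.799 and 0.892).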

How the results depend on the processing

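Over 31 alternatives, no call of a keratin turned its direction: of 1163 values of single keratins under the alternatives, 1134 kept their side of the threshold, 18 lost a call and 11 gained one. The main count for Dp16 over wild-type, 2 keratins, was 0 without sex as a term, 0 in males alone and 0 in females alone, and 1 to 2 with each library left out. The main count for Dp16 2xIFNRs over wild-type, 1 keratin, was 0 in those 3 fits and 1 to 2 with each library left out. It was 2, with Krt7 added at an adjusted p of 0.0335 to 0.0486, with the replicate block, with DESeq2, with the description number as a block in limma-voom, in the trend fit on RPKM and when scaled to total counts. The count between the sexes ran from 4 to 6, and 0 keratins were called between Dp16 2xIFNRs and Dp16 or in an interaction under any alternative run. With the replicate block the calls of the log2 ratio of Krt8 to Krt18 were lost: the differences from wild-type, -0.437 in Dp16 and -0.468 in Dp16 2xIFNRs, which pairing cannot move, had exact permutation p of 0.125 and 0.0625; permuted without regard to sex the second, -0.468, had a p of 0.0519. With each library left out the difference ran from -0.509 to -0.387 in Dp16, from -0.53 to -0.434 in Dp16 2xIFNRs and from -0.081 to 0.041 between Dp16 2xIFNRs and Dp16. With sex left in, 9 of 15 pairs of keratins were correlated, in place of 1; the cause was not tested.

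The labels do not say whether the sample numbers shared between groups pair the animals. The correlation of same-numbered libraries ran from -0.0554 to 0.218 over 18 pairs. Its mean was 0.0491, against -0.00983 for other pairs, and 6 of 18 libraries correlated best with their own number. These low correlations do not decide whether the animals were paired. The block also made Krt8 (adjusted p = 0.12) and Krt20 (0.0592) lose their call between the sexes and gave one to Krt19 (0.0371). The count of all genes called, 744 for Dp16 and 841 for Dp16 2xIFNRs over wild-type, was 190 and 234 without sex as a term, 1236 and 1287 with DESeq2, 318 and 343 in males alone and 33 and 14 in females alone. It was 453 for Dp16 with the 2 groups alone, and its lowest with a library left out was 429 for Dp16 (Dp16 replicate 3) and 526 for Dp16 2xIFNRs (wild-type replicate 1). The 3 genes called between Dp16 2xIFNRs and Dp16 became 1 in males alone and 0 in females alone. Krt20, with 23 to 104 counts, sets the limit of depth here.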

Other observations

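The cell type lists whose genotype differences are not described above were read beside the share of all genes called by edgeR. It was 4.23% for Dp16 and 4.79% for Dp16 2xIFNRs over wild-type, with 3.17% as higher in each. At an unadjusted p under 0.05, 3004 and 3196 of all 17575 genes passed. Of 4 podocyte genes 1 rose in Dp16 kidneys and 2 in Dp16 2xIFNRs kidneys over wild-type, among the second Synpo by 0.30 on the log2 scale. In Dp16 2xIFNRs kidneys Pvalb of the distal convoluted tubule rose by 0.36 (adjusted p = 0.0446). Slc5a3, the myo-inositol carrier counted with the inner medulla, rose there by 0.54 (adjusted p = 0.0312). The positions of these genes relative to the duplicated segment are not given here. An effect of copy number on Slc5a3 was not tested. In Dp16 kidneys 0 of 3 distal convoluted tubule genes and 0 of 4 inner medulla genes were called by edgeR (1 and 2 at an unadjusted p under 0.05), and DESeq2 called 1 of them, Slc5a3. The proximal tubule, loop of Henle, intercalated cell and endothelial lists, of 6, 5, 5 and 4 genes, held 0 calls by edgeR in both comparisons with wild-type. At an unadjusted p under 0.05 they held 2, 1, 1 and 1 genes in Dp16 kidneys and 1, 1, 3 and 2 genes in Dp16 2xIFNRs kidneys, and DESeq2 called 1 gene, Slc34a1 in Dp16 kidneys (edgeR log2 fold -0.20, adjusted p = 0.0516).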
